A study of Mus musculus with 20 samples.

Results

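The 10 genes described here encode small calcium-binding S100 proteins (S100a4, S100a6, S100a10, S100a11), annexin A2 (Anxa2), the giant scaffold protein AHNAK (Ahnak), the intermediate filament protein vimentin (Vim), the LIM-domain protein CRIP1 (Crip1) and the sugar-binding galectins 1 and 3 (Lgals1, Lgals3). They were picked, 10 of the 22878 gene symbols measured, because their RNA levels differed in opposite directions in 2 sorts of mouse CD4 T cells: lower in spleen cells that were expressing the transcription factor T-bet, and higher in lymph node cells that carried a mark of past T-bet expression. Their differences in those comparisons are therefore a description with no test. Follicular helper T cells (Tfh) were also compared with other antigen-specific T cells, over cells with and without the mark. This comparison was not part of the rule that picked the genes, and was tested. The genes were chosen with earlier results of these data known, so the test cannot be taken as independent of the choice.

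S100 proteins have EF-hand calcium-binding motifs and act by binding other proteins. A pair of S100A10 chains joins a pair of annexin A2 chains in a complex under the plasma membrane that also binds AHNAK, while S100A4 binds the heavy chain of non-muscle myosin. Vimentin forms filaments of the cytoplasm, and galectins 1 and 3 bind beta-galactoside sugars on cell surfaces. In T cells these genes are known as a group that is low in naive cells and high in effector and memory cells, and many of them are also abundant in macrophages and monocytes.

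Spleen cells came from naive T-bet-ZsGreen-T2A-CreERT2 (ZTCE) x Rosa26-loxP-STOP-loxP-tdTomato mice on the C57BL/6 background, in which green fluorescence reports current T-bet expression and an inducible Cre from the same allele switches on tdTomato. The labels give no induction schedule. CD4+CD44highCD25- cells were sorted as ZsGreen+ or ZsGreen-, and both sorts were tdTomato+, so both had a T-bet history. Lymph node cells came from T-bet-Cre x Rosa26-loxP-STOP-loxP-tdTomato mice on the same background, where tdTomato marks any cell that has expressed the Cre. On day 16 after immunization with the peptide AS15 in complete Freund's adjuvant (CFA), cells of the draining lymph nodes that bound an AS15 tetramer were sorted as CXCR5high PD1high (Tfh) or CXCR5low PD1low (non-Tfh), each Tomato+ or Tomato-. The spleen groups and the lymph node groups thus differ in mouse line, tissue and immunization. Each of the 6 groups had 2 RNA libraries, 12 in all. The labels do not say whether the 2 libraries of a group came from separate animals, so p-values measure only the spread between these libraries, which may be technical.

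All 4 S100 genes lie on chromosome 3. Levels are the deposited RPKM, reads scaled by transcript length and by the reads of the library. Reads assigned to genes ran from 13169783 to 24174592 per library, and the 10 genes had between 694 (Lgals3) and 36396 (Lgals1) reads in a library. Of the 10 genes, 10 passed the filter on low counts in both fits. Tbx21, which encodes T-bet, measured 193 and 214 RPKM in spleen ZsGreen+ libraries, against 46.4 and 45.3 RPKM in ZsGreen- libraries. In Tfh cells Tbx21 measured 106 and 53 RPKM in Tomato+ libraries, against 12.8 and 12.9 RPKM in Tomato- libraries, and in non-Tfh cells 183 and 163 RPKM in Tomato+ libraries, against 10.4 and 10.5 RPKM in Tomato- libraries. Bcl6, Cxcr5 and Pdcd1, the Tfh transcription factor gene and the genes of both sorted receptors, were higher in Tfh than in non-Tfh cells (log2 fold changes 2.11 ± 0.19, 2.20 ± 0.26 and 2.14 ± 0.20 (SE) over both Tomato states, edgeR adjusted p 0.00376, 0.00842 and 0.00376), with each of the 4 Tfh libraries above each of the 4 non-Tfh libraries. All 9 CD4 T cell marker genes were present in every group, with summed levels of 2723 to 4289 RPKM per library. In the spleen edgeR called 4 of the 9 lower in ZsGreen+ cells and 0 higher, where 12.4% and 11.4% of all genes were. Cd4 itself measured 199 and 189 RPKM in ZsGreen+ libraries, against 362 and 381 RPKM in ZsGreen- libraries. Myeloid transcripts were also present, and are given beside the results below. Bulk RNA cannot tell fewer cells of a type from less RNA per cell.

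RefSeq promoters (build GRCm38.p6, 250 bases before to 50 after the transcription start) were in the table for 8 of the 10 genes. They were searched on both strands for AGGTGT (core of the element bound by T-box factors such as T-bet), TGANTCA (AP-1), CCACCC (KLF factors) and TGTGGT (Runx factors). AGGTGT was in 0 of the 8 windows, against 13.7% of the 32851 promoters of the same length. TGANTCA was in 2 of 8 (S100a11 with 2 matches, Anxa2 with 1), against 7.81% of all promoters. CCACCC was in 5 of 8 (Vim, S100a4, Anxa2, Crip1, Ahnak), against 31.5%, and TGTGGT in 1 of 8 (S100a6), against 16.8%. A window with no match says only that these letters are not in it. The 4 windows below are those of both genes with an AP-1 match and, for comparison, of S100a4 and Vim, the genes with the lowest spleen log2 fold changes; capitals mark TGANTCA and CCACCC on either strand. Anxa2 lies at chr9:69453433-69453732, plus strand, S100a11 at chr3:93520246-93520545, plus strand, S100a4 at chr3:90603520-90603819, plus strand, and Vim at chr2:13574061-13574360, plus strand.
Anxa2: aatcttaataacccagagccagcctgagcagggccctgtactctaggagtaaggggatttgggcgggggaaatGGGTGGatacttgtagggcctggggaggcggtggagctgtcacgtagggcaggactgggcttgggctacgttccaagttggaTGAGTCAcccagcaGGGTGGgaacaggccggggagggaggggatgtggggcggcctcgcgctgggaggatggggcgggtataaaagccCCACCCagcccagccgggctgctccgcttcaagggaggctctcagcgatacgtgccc
S100a11: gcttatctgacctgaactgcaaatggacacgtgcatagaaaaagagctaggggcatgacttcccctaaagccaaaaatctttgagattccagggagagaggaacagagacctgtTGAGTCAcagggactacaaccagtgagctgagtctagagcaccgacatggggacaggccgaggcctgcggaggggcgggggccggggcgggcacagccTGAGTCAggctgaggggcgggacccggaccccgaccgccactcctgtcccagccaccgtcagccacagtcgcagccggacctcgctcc
S100a4: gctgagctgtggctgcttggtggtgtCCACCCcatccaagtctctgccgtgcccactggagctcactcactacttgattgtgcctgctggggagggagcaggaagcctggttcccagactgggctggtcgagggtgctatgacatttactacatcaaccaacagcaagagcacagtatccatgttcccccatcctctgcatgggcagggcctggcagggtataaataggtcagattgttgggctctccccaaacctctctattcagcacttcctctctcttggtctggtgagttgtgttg
Vim: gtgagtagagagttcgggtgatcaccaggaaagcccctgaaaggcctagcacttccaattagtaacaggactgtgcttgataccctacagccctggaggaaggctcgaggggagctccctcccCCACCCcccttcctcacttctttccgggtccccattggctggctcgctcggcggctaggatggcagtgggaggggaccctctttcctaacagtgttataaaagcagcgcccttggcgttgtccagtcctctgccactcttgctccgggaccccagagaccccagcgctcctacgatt

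S100a4, the gene of the myosin-binding S100 protein, is among the most abundant of the 10. S100a4 measured 291 and 227 RPKM in spleen ZsGreen+ libraries, against 495 and 551 RPKM in spleen ZsGreen- libraries. S100a4 stood at 872 and 713 RPKM in Tfh Tomato+ libraries, against 247 and 343 RPKM in Tfh Tomato- libraries. It was at 1521 and 1774 RPKM in non-Tfh Tomato+ libraries, against 424 and 443 RPKM in non-Tfh Tomato- libraries. The non-Tfh Tomato+ libraries were the highest of all 12, and in each of the 3 pairs the groups did not overlap. As log2 fold changes, S100a4 gave -1.05 ± 0.12 (SE) for ZsGreen+ over ZsGreen-, 1.41 ± 0.23 for Tomato+ over Tomato- in Tfh cells and 1.95 ± 0.23 for Tomato+ over Tomato- in non-Tfh cells. S100a10 measured 824 and 720.1 RPKM in spleen ZsGreen+ libraries, against 1261 and 1240.0 RPKM in spleen ZsGreen- libraries, so the 2 spleen groups did not overlap. S100a10 stood at 863 and 759 RPKM in Tfh Tomato+ libraries, against 329 and 369 RPKM in Tfh Tomato- libraries. It was at 1663 and 1585 RPKM in non-Tfh Tomato+ libraries, against 682 and 458 RPKM in non-Tfh Tomato- libraries. On the RPKM scale, which is per length, S100a10, the annexin A2 partner, had the highest mean level of the 4 S100 genes in 5 of the 6 groups; in non-Tfh Tomato+ cells S100a4 was slightly higher. For S100a10 these amount to log2 fold changes of -0.73 ± 0.088 (SE) for ZsGreen+ over ZsGreen-, 1.2 ± 0.21 for Tomato+ over Tomato- in Tfh cells and 1.54 ± 0.21 for Tomato+ over Tomato- in non-Tfh cells.

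S100a6, which encodes the EF-hand protein calcyclin, followed the same order within each pair at lower levels. S100a6 measured 285 and 221 RPKM in spleen ZsGreen+ libraries, against 368 and 401 RPKM in spleen ZsGreen- libraries. S100a6 stood at 367 and 284 RPKM in Tfh Tomato+ libraries, against 133 and 175 RPKM in Tfh Tomato- libraries. It was at 686 and 697 RPKM in non-Tfh Tomato+ libraries, against 304 and 221 RPKM in non-Tfh Tomato- libraries. None of the 3 pairs overlapped. Log2 fold changes of S100a6 were -0.64 ± 0.12 (SE) for ZsGreen+ over ZsGreen-, 1.07 ± 0.25 for Tomato+ over Tomato- in Tfh cells and 1.43 ± 0.25 for Tomato+ over Tomato- in non-Tfh cells. S100a11, which encodes a partner of annexin A1, was the exception. S100a11 measured 134 and 109 RPKM in spleen ZsGreen+ libraries, against 181 and 178 RPKM in spleen ZsGreen- libraries. S100a11 stood at 214 and 231 RPKM in Tfh Tomato+ libraries, against 148 and 229 RPKM in Tfh Tomato- libraries. It was at 201 and 268 RPKM in non-Tfh Tomato+ libraries, against 209 and 155 RPKM in non-Tfh Tomato- libraries. Its spleen groups were apart, but both lymph node pairs overlapped, and its whole range over the 12 libraries was 109 to 268 RPKM. S100a11 had log2 fold changes of -0.59 ± 0.10 (SE) for ZsGreen+ over ZsGreen-, 0.22 ± 0.32 for Tomato+ over Tomato- in Tfh cells and 0.40 ± 0.32 for Tomato+ over Tomato- in non-Tfh cells.

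Anxa2, the calcium-dependent membrane-binding annexin of the S100A10 complex, lay below S100a4, S100a6 and S100a10 in each of the 12 libraries. Anxa2 measured 125 and 102 RPKM in spleen ZsGreen+ libraries, against 238 and 204 RPKM in spleen ZsGreen- libraries. Anxa2 stood at 133 and 128 RPKM in Tfh Tomato+ libraries, against 46 and 31.5 RPKM in Tfh Tomato- libraries. It was at 217 and 261 RPKM in non-Tfh Tomato+ libraries, against 42.3 and 71.2 RPKM in non-Tfh Tomato- libraries. None of these 3 pairs overlapped, while the spleen ZsGreen- and the non-Tfh Tomato+ libraries overlapped each other. As log2 fold changes, Anxa2 gave -1.0 ± 0.11 (SE) for ZsGreen+ over ZsGreen-, 1.73 ± 0.33 for Tomato+ over Tomato- in Tfh cells and 2.1 ± 0.34 for Tomato+ over Tomato- in non-Tfh cells. Ahnak, whose transcript model of 18099 bases makes it the longest of the 10, had the lowest RPKM, from between 1086 and 15673 reads per library. Ahnak measured 16.5 and 15 RPKM in spleen ZsGreen+ libraries, against 18.9 and 16.6 RPKM in spleen ZsGreen- libraries, a narrow gap. Ahnak stood at 15.5 and 15.3 RPKM in Tfh Tomato+ libraries, against 2.95 and 2.34 RPKM in Tfh Tomato- libraries. It was at 37.2 and 28.6 RPKM in non-Tfh Tomato+ libraries, against 14.6 and 10.4 RPKM in non-Tfh Tomato- libraries. The Tfh Tomato- libraries stood far below the other 5 groups. For Ahnak these amount to log2 fold changes of -0.21 ± 0.088 (SE) for ZsGreen+ over ZsGreen-, 2.53 ± 0.25 for Tomato+ over Tomato- in Tfh cells and 1.43 ± 0.24 for Tomato+ over Tomato- in non-Tfh cells.

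Vim, the type III intermediate filament gene of mesenchymal and blood cells, showed the lowest spleen ratio of the 10. Vim measured 155 and 111 RPKM in spleen ZsGreen+ libraries, against 296 and 362 RPKM in spleen ZsGreen- libraries. Vim stood at 155 and 134 RPKM in Tfh Tomato+ libraries, against 37 and 51.7 RPKM in Tfh Tomato- libraries. It was at 376 and 489.6 RPKM in non-Tfh Tomato+ libraries, against 118 and 103 RPKM in non-Tfh Tomato- libraries. No pair overlapped. Log2 fold changes of Vim were -1.34 ± 0.16 (SE) for ZsGreen+ over ZsGreen-, 1.69 ± 0.24 for Tomato+ over Tomato- in Tfh cells and 2.0 ± 0.25 for Tomato+ over Tomato- in non-Tfh cells. Crip1, a gene for a small zinc-binding LIM protein, had the highest level of any of the 10 in a library. Crip1 measured 697 and 612 RPKM in spleen ZsGreen+ libraries, against 1290.1 and 980.0 RPKM in spleen ZsGreen- libraries. Crip1 stood at 1118 and 836 RPKM in Tfh Tomato+ libraries, against 210.4 and 239 RPKM in Tfh Tomato- libraries. It was at 1947 and 1606 RPKM in non-Tfh Tomato+ libraries, against 618 and 656 RPKM in non-Tfh Tomato- libraries. The Tomato- libraries of Tfh cells were the lowest of the 12, and no pair overlapped. Crip1 had log2 fold changes of -0.83 ± 0.12 (SE) for ZsGreen+ over ZsGreen-, 2.11 ± 0.21 for Tomato+ over Tomato- in Tfh cells and 1.5 ± 0.21 for Tomato+ over Tomato- in non-Tfh cells.

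The 2 galectin genes differed from each other in the spleen. Lgals1 measured 560.1 and 428 RPKM in spleen ZsGreen+ libraries, against 884 and 789 RPKM in spleen ZsGreen- libraries. Lgals1 stood at 923 and 876 RPKM in Tfh Tomato+ libraries, against 317 and 268 RPKM in Tfh Tomato- libraries. It was at 1569 and 1696 RPKM in non-Tfh Tomato+ libraries, against 316 and 264 RPKM in non-Tfh Tomato- libraries. The Lgals1 libraries of both Tomato- groups overlapped, and its Tomato+ libraries were higher in both populations. As log2 fold changes, Lgals1 gave -0.79 ± 0.12 (SE) for ZsGreen+ over ZsGreen-, 1.61 ± 0.18 for Tomato+ over Tomato- in Tfh cells and 2.52 ± 0.18 for Tomato+ over Tomato- in non-Tfh cells. Lgals3 measured 59.1 and 45.9 RPKM in spleen ZsGreen+ libraries, against 64.2 and 48.8 RPKM in spleen ZsGreen- libraries, and these ranges overlap. Lgals3 stood at 183 and 155 RPKM in Tfh Tomato+ libraries, against 16.9 and 27.9 RPKM in Tfh Tomato- libraries. It was at 298 and 267 RPKM in non-Tfh Tomato+ libraries, against 58.2 and 72.2 RPKM in non-Tfh Tomato- libraries. Its lymph node pairs were apart, with Tfh Tomato- libraries the lowest of the 12. For Lgals3 these amount to log2 fold changes of -0.14 ± 0.14 (SE) for ZsGreen+ over ZsGreen-, 2.91 ± 0.30 for Tomato+ over Tomato- in Tfh cells and 2.14 ± 0.29 for Tomato+ over Tomato- in non-Tfh cells.

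**Figure D1:**
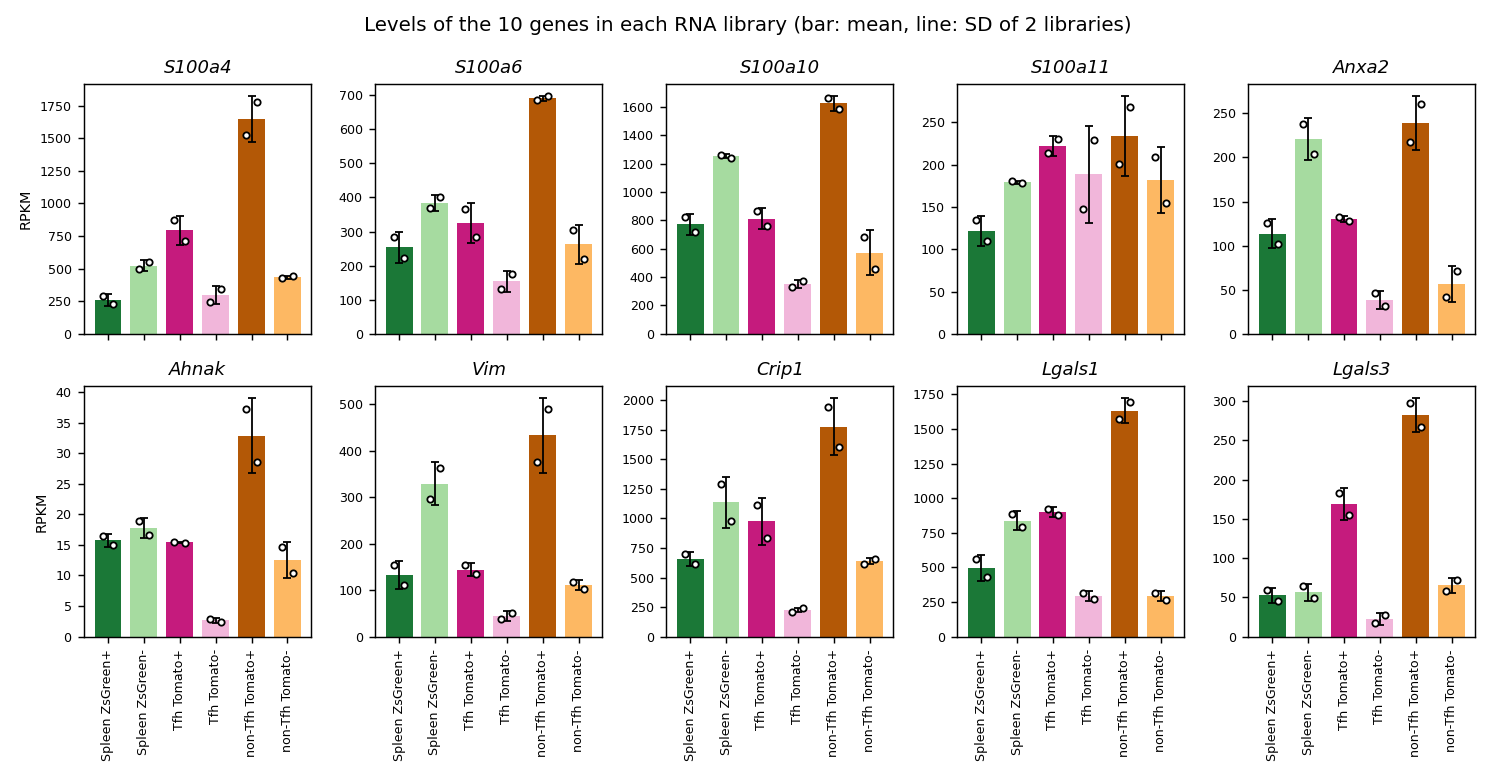
RPKM (vertical axis, linear, from 0) of the 10 genes in the 6 groups along the horizontal axis; bars are means, lines the SD and open points the 2 libraries of a group. The non-Tfh Tomato+ bar is the highest in all 10 panels, and S100a11 is the flattest, between 109 and 268 RPKM.

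Over the 10 genes, the median log2 fold change was -0.76 for spleen ZsGreen+ over ZsGreen-, where the median of all 12918 genes tested was 0.0044, with 10 of 10 values negative. It was 1.65 for Tomato+ over Tomato- in Tfh cells (all 11746 genes tested, 0.0099) and 1.75 in non-Tfh cells (all genes, 0), with 10 of 10 values positive in each. Spleen ZsGreen+ libraries lay below ZsGreen- libraries without overlap for 9 of the 10 genes, where 26.9% of all genes tested did so. In the lymph node, Tomato+ libraries lay above Tomato- libraries without overlap for 9 of 10 genes in Tfh cells (18.4% of all genes) and 9 of 10 in non-Tfh cells (19.0%). The genes were picked by these directions, so nothing is read from these counts. The smallest differences were those of Lgals3 in the spleen and S100a11 in the lymph node. The sign of Lgals3 in the spleen and of S100a11 in Tfh cells turned when certain single libraries were left out, while that of S100a11 in non-Tfh cells did not. Without the ZsGreen- replicate 1 library the Lgals3 log2 fold change was 0.055, without the ZsGreen+ replicate 2 library 0.043, and without the Tfh Tomato- replicate 1 library that of S100a11 in Tfh cells was -0.065. Both lymph node comparisons have libraries and a fit in common with the Tfh comparisons below.

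**Figure D2:**
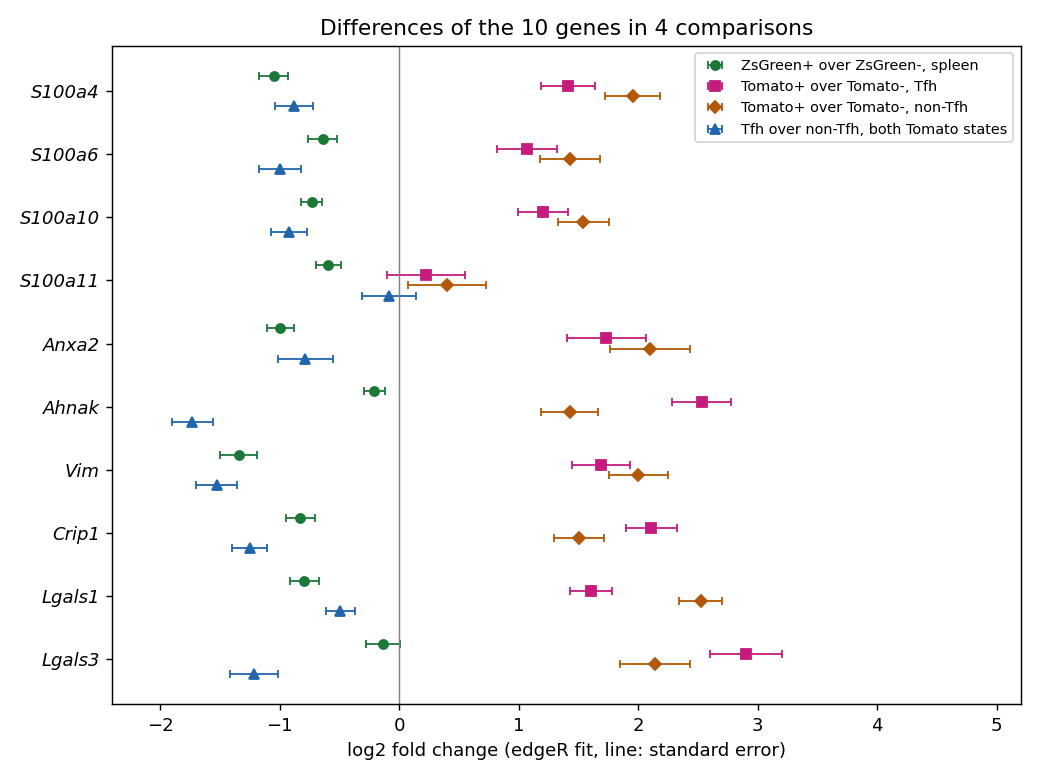
Log2 fold changes (horizontal axis) from the edgeR fits for each gene (vertical axis), lines being standard errors; circles are spleen ZsGreen+ over ZsGreen-, squares and diamonds Tomato+ over Tomato- in Tfh and non-Tfh cells, triangles Tfh over non-Tfh. Circles and triangles lie left of 0 for all 10 genes and squares and diamonds right of it, with S100a11 nearest to 0 in the lymph node.

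The estimated Tomato difference was larger in Tfh cells for 3 of the genes and smaller for the other 7. For Ahnak the log2 fold change in Tfh cells exceeded that in non-Tfh cells by 1.1 ± 0.33 (SE), for Lgals3 by 0.77 ± 0.40 and for Crip1 by 0.60 ± 0.29. For Lgals1 the value of Tfh minus non-Tfh was -0.92 ± 0.24, and for S100a4 -0.54 ± 0.31. The other 5 genes had values between -0.37 and -0.18. These are given as a description, with no test, because each rests on the Tomato comparisons that picked the genes.

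Tfh cells had less RNA of most of these genes than non-Tfh cells. Over both Tomato states, 7 of the 10 genes were lower in Tfh cells (edgeR quasi-likelihood test, Benjamini-Hochberg adjusted p below 0.05), where 0.519% of the 11746 genes tested were called lower and 0.553% higher; 0 of the 10 were higher, and all 10 values were negative. DESeq2 called 9 of the 10 (6.17% of all genes, in either direction) and limma-trend on log2(RPKM + 1) 6 (1.21%). The median log2 fold change of the 10 was -0.96, and of all genes tested 0.0087. Ahnak had the lowest value, -1.73 ± 0.17 (SE, adjusted p = 0.00391), followed by Vim at -1.53 ± 0.17 (adjusted p = 0.00724) and Crip1 at -1.25 ± 0.15 (adjusted p = 0.00844). Lgals3 was lower by a log2 fold change of -1.21 ± 0.20 (adjusted p = 0.0375). Among the S100 genes, S100a6 gave -1.0 ± 0.18 (adjusted p = 0.0447), S100a10 -0.92 ± 0.15 (adjusted p = 0.0338) and S100a4 -0.88 ± 0.16 (adjusted p = 0.0486). For each of these 7 genes every Tfh library was below every non-Tfh library of the same Tomato state. Over all genes 17.0% lay so among Tomato+ cells and 17.0% among Tomato- cells, and the share in both states together was not computed. The 7 were called on these same libraries, so nothing more is read from this.

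The 3 genes that did not pass were Anxa2 at -0.79 ± 0.23 (adjusted p = 0.22), Lgals1 at -0.49 ± 0.12 (adjusted p = 0.149) and S100a11 at -0.085 ± 0.23 (adjusted p = 0.967). The number called rests on the libraries and settings used. With counts summed over all rows of a symbol it was 3 (Ahnak, Vim and Crip1). Over all genes 93 were then called in either direction, against 126 in the main fit. With both Tomato- libraries of replicate 2 left out, which had the highest neutrophil marker levels of the lymph node, it was 2 (Ahnak and Vim; 0.215% of all genes were called in either direction), and the median log2 fold change of the 10 genes was -1.14. With any 1 of the 8 libraries left out it was 3 to 5, the value of 5 being without the Tfh Tomato- replicate 2 library. Ahnak, Vim and Crip1 stayed called in all 8 of these fits. The S100a11 value was above 0 in 3 of the 8 fits, at 0.067 without the Tfh Tomato- replicate 1 library, 0.021 without the non-Tfh Tomato- replicate 1 library and 0.047 without the non-Tfh Tomato+ replicate 2 library.

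Within one Tomato state 2 libraries were compared with 2, in the same fit of all 8 lymph node libraries. Among Tomato+ cells 0 of the 10 genes passed with edgeR (0.0170% of all genes were called lower and 0.0596% higher), 9 had an unadjusted p below 0.05 (8.19% of all genes), and DESeq2 called 7 (3.52% of all genes) and limma-trend 1 (0.263%). Tfh libraries nevertheless lay below non-Tfh libraries without overlap for 9 of the 10, where 17.0% of all genes did so, and the median log2 fold change was -1.03. Vim gave -1.68 ± 0.24 (adjusted p = 0.0756) and Lgals1 -0.95 ± 0.17 (adjusted p = 0.128). Among Tomato- cells 2 of the 10 were lower in Tfh cells (0.0936% of all genes lower, 0.0851% higher), Ahnak at -2.29 ± 0.25 (adjusted p = 0.0198) and Crip1 at -1.55 ± 0.21 (adjusted p = 0.0382), and 7 had an unadjusted p below 0.05 (9.02% of all genes). DESeq2 called 6 (4.46%) and limma-trend 1 (0.391%). With only the libraries compared in the edgeR fit, 0 of the 10 were called among Tomato- cells, and 0 over all genes. The count among Tomato- cells was 0 with both replicate 2 libraries left out, and 0 or 1 with any 1 of the 4 left out. There 7 of 10 genes did not overlap, where 17.0% of all genes did so, and Lgals1 gave -0.035 ± 0.17. These comparisons within a Tomato state use the same libraries as the Tomato comparisons that picked the genes.

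Across the 6 groups the order of mean levels is partly set by how the genes were picked. The directions within the spleen pair and the Tomato pairs limit which groups can stand at the top or bottom. The order is therefore a description, and nothing is read from how many genes share a top or bottom group. All 10 genes had their highest group mean in non-Tfh Tomato+ cells, also with TMM-scaled RPKM, and 7 had their lowest in Tfh Tomato- cells. The exceptions were S100a4 and S100a11, lowest in spleen ZsGreen+ cells, and Lgals1, lowest in non-Tfh Tomato- cells. For S100a11 and Anxa2 the libraries of the top group overlapped those of the next group. The highest group mean was 1.92-fold the lowest for S100a11, 4.49-fold for S100a6, 4.65-fold for S100a10 and 5.63-fold for Lgals1. It was 6.17-fold for Anxa2, 6.37-fold for S100a4, 7.91-fold for Crip1 and 9.76-fold for Vim, and it reached 12.5-fold for Ahnak and 12.6-fold for Lgals3.

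In the middle of the order the groups changed places. Spleen ZsGreen- came next for S100a6, S100a10, Anxa2, Ahnak, Vim and Crip1, and Tfh Tomato+ came next for S100a4, S100a11, Lgals1 and Lgals3. Spleen ZsGreen- and Tfh Tomato+ overlapped in Crip1 and in Lgals1, as neighbours in the order. Tfh Tomato+ and spleen ZsGreen+ overlapped in S100a10, Vim and Ahnak, as neighbours, and in S100a6, where they were not neighbours. Of the 5 neighbouring pairs, 1 overlapped for S100a4, S100a10 and Ahnak, 4 for S100a11 and 2 for each of the other 6 genes. Levels of the spleen and lymph node libraries were normalized within each library only, so this order across tissues is a description.

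Levels of the 10 genes were correlated over the libraries, and in the lymph node and over all 12 libraries S100a11 stood apart from the rest. Over the 8 lymph node libraries the median Pearson correlation of log2(RPKM + 1) between pairs was 0.929 (45 pairs, 0.418 to 0.991), and over all 12 libraries 0.835 (0.139 to 0.975). S100a11 had the lowest values, with a median of 0.575 over the lymph node libraries and 0.319 over all 12. S100a6 and S100a10, in the lymph node, gave the top value of 0.991. Over the 4 spleen libraries S100a11 did not stand apart (median 0.982), and Lgals3 had the lowest median, 0.489. The points share groups of 2 libraries, and the genes were picked for a common direction, so these values describe the set and carry no p.

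**Figure D3:**
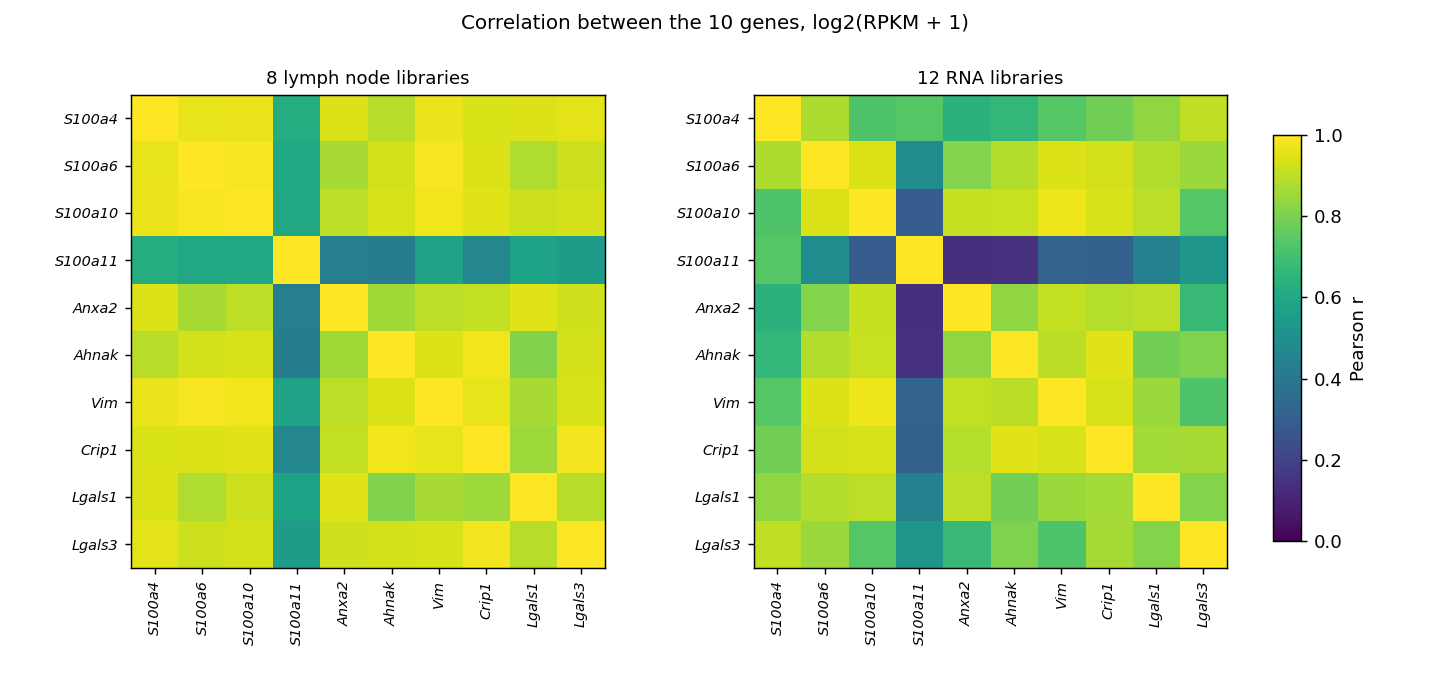
Pearson correlation between the 10 genes (both axes), computed on log2(RPKM + 1), over the 8 lymph node libraries (left) and the 12 RNA libraries (right), with colour from 0 to 1. The S100a11 row is the darkest in both, with a median of 0.575 in the lymph node and 0.319 over all libraries.

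Other genes with a like pattern were ranked by correlation with the mean z-score of the 10. Over 12 libraries, among 7930 genes, the 8 highest were Glipr2 (0.949), Agpat4 (0.914), Psmb1 (0.905), Runx2 (0.900), S100a13 (0.895), Gmfg (0.892), Ccl1 (0.877) and Txn1 (0.873). Over the 8 lymph node libraries, among 7017 genes, they were 5830411N06Rik (0.981), Ly6a (0.979), Glipr2 (0.977), Cd47 (0.972), Tax1bp1 (0.971), Cxcr3 (0.968), Ltb4r1 (0.963) and Ifngr1 (0.963). Glipr2 was in both lists, and averaged 171 RPKM in non-Tfh Tomato+ cells, against 37.6 RPKM in non-Tfh Tomato- cells. Its spleen values were 66.7 RPKM in ZsGreen+ cells, against 91.5 RPKM in ZsGreen- cells. Cxcr3, the chemokine receptor gene of Th1 cells, resembled the 10 in the lymph node, with 166 RPKM in non-Tfh Tomato+ cells against 60.3 RPKM in non-Tfh Tomato- cells. In the spleen Cxcr3 ran the other way from the 10, at 532 RPKM in ZsGreen+ cells against 340.0 RPKM in ZsGreen- cells. So did 5830411N06Rik, Ly6a, Cd47, Tax1bp1, Ltb4r1 and Ifngr1. Of the lymph node list Glipr2 alone had a lower mean in ZsGreen+ cells. Of the 12-library list Txn1 alone had a higher mean in ZsGreen+ cells, at 91.4 RPKM against 87.3 RPKM in ZsGreen- cells. The spleen libraries of Txn1 and of Ccl1 overlapped between the groups. Ccl1 was low, with its highest group mean, 14.6 RPKM, from 22.1 and 7.16 RPKM in non-Tfh Tomato+ libraries.

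Relatives and partners of the 10 were read from lists of the S100 family, annexins, galectins, intermediate filament and LIM proteins, and partners of annexin A2 and the S100 proteins with the cortical cytoskeleton. In the spleen, 25 of the 58 tested were lower in ZsGreen+ cells and 2 higher (12.4% and 11.4% of all genes), and 37 had an unadjusted p below 0.05 (35.1%). DESeq2 called 25 lower and 3 higher (21.3% of all genes in either direction) and limma-trend, of 56 tested, 19 lower and 2 higher (24.1%). Most of these were in the partner and cytoskeleton list, with 15 of 27 lower, such as Actn1, which encodes the actin cross-linker alpha-actinin 1, at -2.65 ± 0.10 (SE, edgeR adjusted p = 2.29e-07). Capg, an actin-capping protein gene, gave -1.57 ± 0.12 (adjusted p = 1.14e-05), the filamin gene Flna -0.91 ± 0.081 (adjusted p = 3.44e-05) and Emp3 -0.73 ± 0.089 (adjusted p = 0.000269). The integrin gene Itgb7 and the actin gene Actb also fell, by 0.57 and 0.50 on the log2 scale. Of 12 intermediate filament and LIM genes 6 were lower, namely Crip2, Pdlim1, Plec, Lmna, Lmnb1 and Fhl2, and Lmnb2, named after its value was seen, was higher at 0.41 ± 0.10 (adjusted p = 0.0144).

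The annexins split in the spleen. Anxa5 averaged 30.7 ± 4.06 RPKM in ZsGreen+ cells, against 67.5 ± 3.42 RPKM in ZsGreen- cells (SD, n = 2), a log2 fold change of -1.17 ± 0.10 (SE, edgeR adjusted p = 3.18e-05). Anxa4 and Anxa7 were also lower. Anxa1, whose protein limits inflammation and binds S100A11, was higher instead, at 36.7 ± 0.856 RPKM in ZsGreen+ cells against 17.4 ± 0.773 RPKM in ZsGreen- cells, a log2 fold change of 1.04 ± 0.086 (adjusted p = 2.2e-05). Of 5 other S100 genes tested edgeR called S100a13, lower at -0.52 ± 0.078 (adjusted p = 0.000959). DESeq2 also called S100a8, named after its value was seen and a neutrophil marker gene, at 0.37 (adjusted p = 0.0169). Of 6 other galectin genes 0 were called with edgeR, DESeq2 or limma-trend, 2 having an unadjusted p below 0.05 with each tool.

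In the Tomato comparisons edgeR called 0 of the 57 related genes tested, where it called 0.102% of all genes higher and 0.00851% lower in Tfh cells, and 0.204% higher and 0.128% lower in non-Tfh cells. In Tfh cells 14 of the 57 had an unadjusted p below 0.05 (5.83% of all genes), while DESeq2 called 6 higher (2.20% of all genes in either direction) and limma-trend 1, Emp3, higher (0.263%). In non-Tfh cells 12 had an unadjusted p below 0.05 (8.94% of all genes), while DESeq2 called 9 higher and 1, Anxa3, lower (4.72% of all genes) and limma-trend 1, Capg, higher (0.645%). Emp3, Capg and Anxa3 were named after these calls were seen. Anxa1 measured 27.1 and 28.5 RPKM in Tfh Tomato+ libraries, against 2.82 and 9.77 RPKM in Tfh Tomato- libraries. It measured 57.6 and 43.7 RPKM in non-Tfh Tomato+ libraries, against 5.93 and 10.7 RPKM in non-Tfh Tomato- libraries. The groups did not overlap in either population, and its log2 fold change was 2.13 ± 0.70 (SE) in Tfh cells (edgeR adjusted p = 0.751) and 2.63 ± 0.72 in non-Tfh cells (adjusted p = 0.309).

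Between Tfh and non-Tfh cells, 7 of the 57 related genes were lower in Tfh cells over both Tomato states and 0 higher, where 0.519% of all genes were lower and 0.553% higher. DESeq2 called 14 lower and 1, Anxa3, higher (6.17% of all genes), and limma-trend 6 lower (1.21%). Anxa6, an annexin of the plasma membrane and endosomes, measured 58.5 and 77.3 RPKM in Tfh Tomato+ libraries, against 192 and 186 RPKM in non-Tfh Tomato+ libraries. In Tomato- cells it measured 18.8 and 25.9 RPKM in Tfh libraries, against 90.7 and 105 RPKM in non-Tfh libraries. The 4 Tfh libraries were below the 4 non-Tfh libraries, a log2 fold change of -1.88 ± 0.17 (SE, edgeR adjusted p = 0.00376). The other 6 were partner and cytoskeleton genes, of 26 tested. Itgb7 gave -1.26 ± 0.12 (adjusted p = 0.00376), Tagln2, a transgelin gene, -1.48 ± 0.14 (adjusted p = 0.00391) and Lsp1, an actin-binding protein gene of leukocytes, -1.02 ± 0.11 (adjusted p = 0.00636). Emp3 gave -1.29 ± 0.17 (adjusted p = 0.0144), Capg -1.19 ± 0.18 (adjusted p = 0.0244) and Flna -0.89 ± 0.15 (adjusted p = 0.0394). Within Tomato+ cells edgeR called Itgb7 of the 57 (-1.45 ± 0.17, adjusted p = 0.0367), and within Tomato- cells Anxa6 (-2.18 ± 0.25, adjusted p = 0.0198) and Tagln2 (-1.94 ± 0.21, adjusted p = 0.0198). With both Tomato- replicate 2 libraries left out, the count over both Tomato states was 3 of 62 tested (Anxa6, Itgb7 and Tagln2), and within Tomato+ and within Tomato- cells 0. In the fits with all libraries DESeq2 called 9 lower and 1, again Anxa3, higher within Tomato+ cells, and 10 lower within Tomato- cells.

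**Figure D4:**
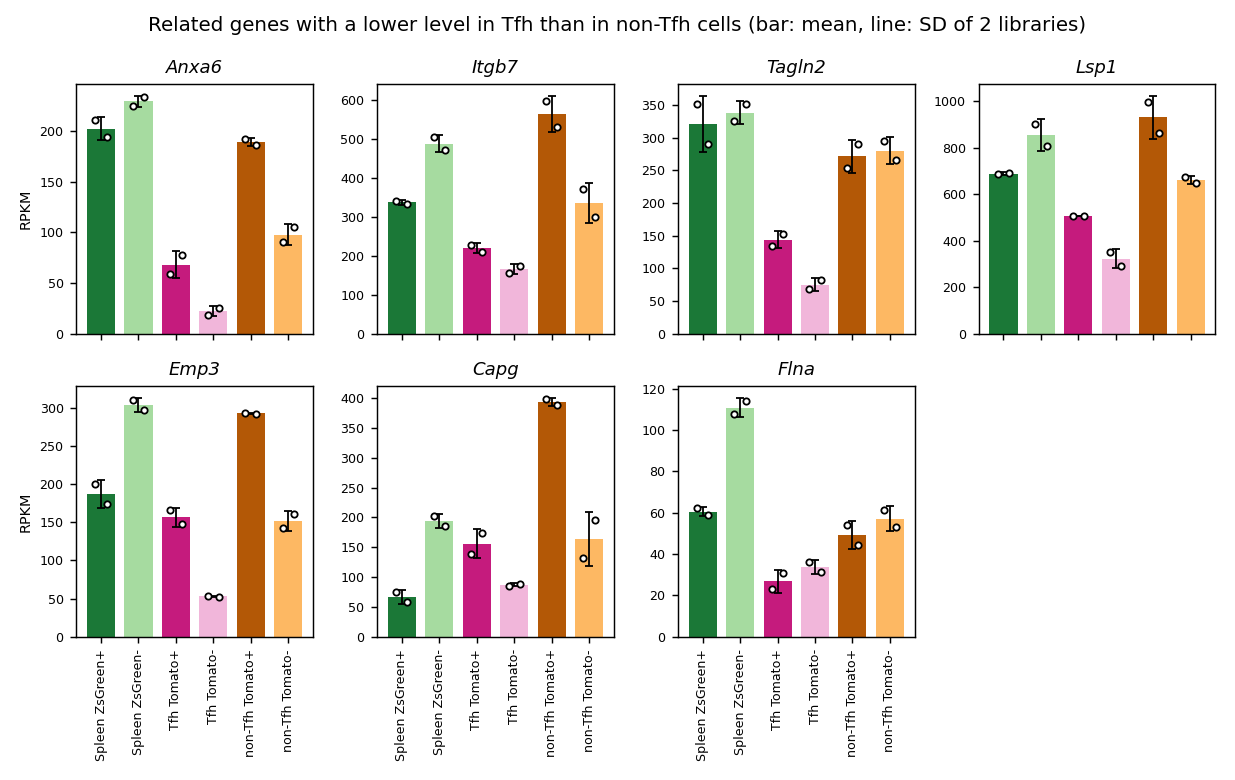
RPKM (vertical axis, linear, from 0) in the 6 groups (horizontal axis) of the 7 related genes that were lower in Tfh cells; bars are means, lines the SD and open points the 2 libraries of a group. Anxa6 is lowest in Tfh Tomato- cells, at 18.8 and 25.9 RPKM, and Anxa6, Tagln2, Emp3 and Flna are highest in spleen ZsGreen- cells, with Flna at 108 and 114 RPKM.

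Markers of other cell types differed between the groups, and the 10 genes are themselves expressed by myeloid cells. Summed over 15 macrophage and monocyte genes, levels were 636 and 479.8 RPKM in Tfh Tomato+ libraries, against 1185 and 1408 RPKM in Tfh Tomato- libraries. In non-Tfh cells they were 302 and 242 RPKM in Tomato+ libraries, against 1624 and 1754 RPKM in Tomato- libraries. Between Tomato states these markers were thus higher where the 10 genes were lower. Between populations they were higher in Tfh than in non-Tfh libraries among Tomato+ cells, where 9 of the 10 genes were lower without overlap, and lower in Tfh than in non-Tfh libraries among Tomato- cells, where 7 of the 10 were lower without overlap. In the spleen they were 773 and 621 RPKM in ZsGreen+ libraries, against 601 and 618 RPKM in ZsGreen- libraries. None of the 15 was at 0 in both libraries of any group, and Lyz2, the lysozyme gene, led the list in 5 of the 6 groups. The part of myeloid RNA in these results was not tested.

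Of 12 neutrophil markers 11 were analysed, and S100a8, an S100 gene outside the 10, led them in 5 of the 6 groups. Their summed level was 536 RPKM in the Tfh Tomato- replicate 2 library and 455 RPKM in the non-Tfh Tomato- replicate 2 library, against 38.0 and 58.7 RPKM in the replicate 1 libraries of the same groups. Tomato+ libraries had 1.66 and 8.36 RPKM in Tfh cells and 101 and 11.1 RPKM in non-Tfh cells, and Mmp8 was at 0 in both libraries of each of the 4 lymph node groups. Cxcr2 was also at 0 in Tfh Tomato+ cells, and Ngp and Camp in non-Tfh Tomato+ cells. Spleen ZsGreen+ libraries had 1178 and 1228 RPKM, against 787 and 1066 RPKM in ZsGreen- libraries. Without both replicate 2 Tomato- libraries the median Tomato log2 fold change of the 10 genes was 1.57 in Tfh cells and 1.75 in non-Tfh cells.

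Markers of NK and innate-like T cells (8 genes) summed to 151 and 142 RPKM in spleen ZsGreen+ libraries, against 14.7 and 16.5 RPKM in ZsGreen- libraries. In Tfh cells they summed to 105 and 115 RPKM in Tomato+ libraries, against 24.4 and 15.8 RPKM in Tomato- libraries, with Zbtb16 at 0 in Tomato+ and Ncr1 at 0 in Tomato- libraries. In non-Tfh cells the sums were 206 and 193 RPKM in Tomato+ libraries, against 26.1 and 19.8 RPKM in Tomato- libraries, where Klre1 was at 0. The sums were higher with ZsGreen and with Tomato, whereas the 10 genes were lower with ZsGreen. In the spleen edgeR called all 8 higher (11.4% of all genes). In each Tomato comparison 7 of the 8 had positive log2 fold changes and 1 negative. There 0 were called in Tfh cells, and 1 was higher in non-Tfh cells (0.204% of all genes). Klrd1 and Zbtb16 led the list in spleen ZsGreen+ cells, and Klrc1 led it in both Tomato+ groups. Dendritic cell markers summed to at most 45.8 RPKM in a library and the 2 CD8 genes to at most 42.4 RPKM. B cell markers were between 108 and 157 RPKM in all 12 libraries. The part of these markers in the results was not tested.

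Th1 markers (9 genes) summed to 1080 and 992 RPKM in Tfh Tomato+ libraries, against 207 and 215 RPKM in Tfh Tomato- libraries. In non-Tfh cells the sums were 2072 and 1921 RPKM, against 256 and 299 RPKM. Of the 9, edgeR called 3 higher in Tfh cells (0.102% of all genes) and 4 in non-Tfh cells (0.204%). In the spleen they ran the other way from the 10 genes, at 4302.5 and 5058 RPKM in ZsGreen+ libraries, against 828 and 883 RPKM. Summed levels of 3 further kinds of marker moved in the Tomato comparisons in the direction of the 10 genes. The 8 cell cycle genes summed to 127 and 141 RPKM in Tfh Tomato+ libraries, against 58.7 and 76.3 RPKM in Tfh Tomato- libraries, and to 98.9 and 115 RPKM in non-Tfh Tomato+ libraries, against 50.6 and 74.1 RPKM in non-Tfh Tomato- libraries. All 8 had positive log2 fold changes in both populations, with 0 called by edgeR (0.102% of all genes higher in Tfh cells, 0.204% in non-Tfh cells). In the spleen these 8 summed to 146 and 138 RPKM in ZsGreen+ libraries, against 164 and 158 RPKM in ZsGreen- libraries. There 6 of the 8 were called lower, where 12.4% of all genes were. The 6 regulatory T cell genes summed to 386 and 341 RPKM in Tfh Tomato+ libraries, against 300.4 and 262 RPKM in Tfh Tomato- libraries, and to 563 and 547 RPKM in non-Tfh Tomato+ libraries, against 390.1 and 501 RPKM in non-Tfh Tomato- libraries. They were lower in Tfh than in non-Tfh libraries of the same Tomato state, as most of the 10 genes were. In the spleen they summed to 223 and 259.7 RPKM in ZsGreen+ libraries, against 278 and 263 RPKM in ZsGreen- libraries. Of the 6, 4 were called lower and 2 higher there (12.4% and 11.4% of all genes).

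Of 4 plasma cell genes 3 were analysed. They summed to 83.2 and 153 RPKM in Tfh Tomato+ libraries, against 18.7 and 54.2 RPKM in Tfh Tomato- libraries, and to 103 and 206 RPKM in non-Tfh Tomato+ libraries, against 41 and 44.4 RPKM in non-Tfh Tomato- libraries, with Tnfrsf17 at 0 in all 4 lymph node groups. In the spleen they summed to 34.7 and 32.3 RPKM in ZsGreen+ libraries, against 40.3 and 49.9 RPKM in ZsGreen- libraries. For these 3 kinds of marker the spleen groups and both Tomato pairs did not overlap in their sums, which ran the way of the 10 genes. Single genes did not all do so. Igj led the plasma cell sum in every group, with 83.2 RPKM in the Tfh Tomato+ replicate 1 library. Tnfrsf18 led the regulatory T cell sum, but in the spleen measured 190 and 225 RPKM in ZsGreen+ libraries, against 169 and 162 RPKM in ZsGreen- libraries. Foxp3 overlapped between Tomato states in Tfh cells. Pcna led the cell cycle sum and was higher in ZsGreen+ libraries. Erythroid genes summed to at most 11.6 RPKM in a lymph node library and to between 90.7 and 111 RPKM in the spleen, and stromal and endothelial genes to between 18.7 and 51.7 RPKM over the 12 libraries. Tfh markers (9 genes) summed to 337 and 325 RPKM in spleen ZsGreen+ libraries, against 572 and 557 RPKM in ZsGreen- libraries. There 8 of the 9 were called lower (12.4% of all genes). In the lymph node their sums overlapped between Tomato states in both populations. The part of these markers in the results was not tested either.

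**Figure D5:**
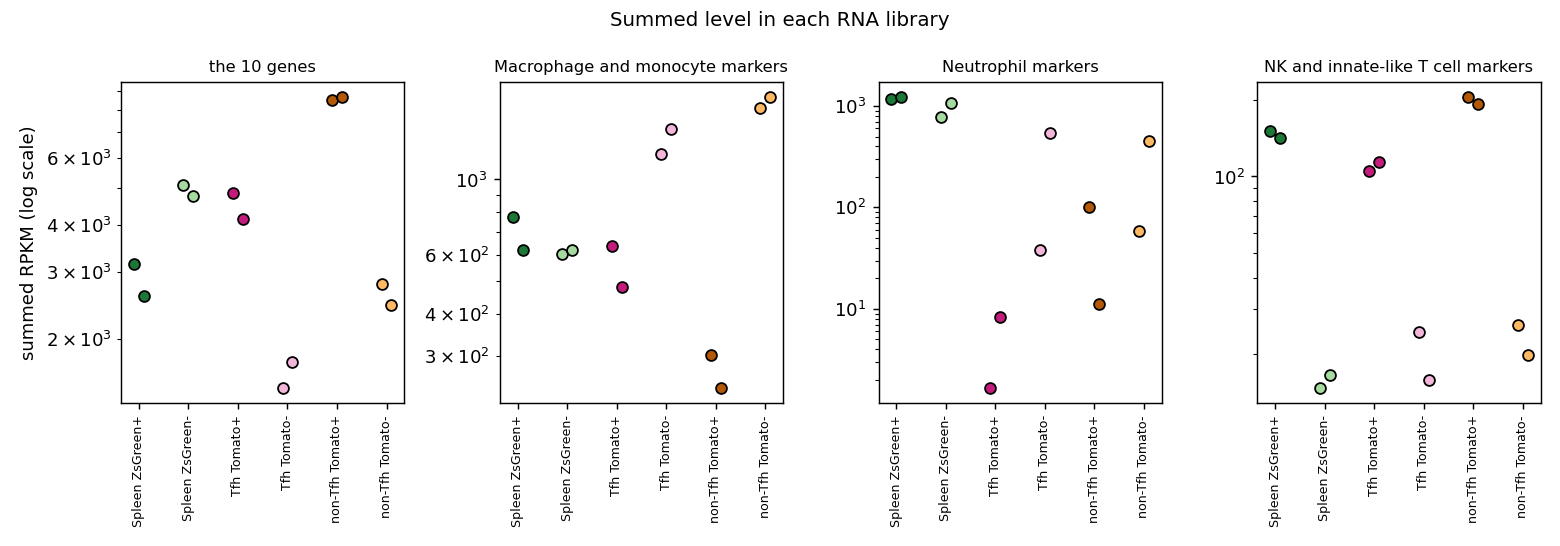
Summed RPKM (vertical axes, log scale) in each of the 12 RNA libraries (points) by group (horizontal axis), for the 10 genes and for markers of macrophages and monocytes, neutrophils, and NK and innate-like T cells. In the lymph node the macrophage and monocyte sum is highest in the Tomato- groups, at 1185 to 1754 RPKM, where the sum of the 10 genes is lowest, at 1487 to 2787 RPKM.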

How the data were processed

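RNA levels came from 12 libraries of polyA RNA, 1 deposited table each, with reads and RPKM per RefSeq transcript row. The authors' deposited RPKM values are reads scaled by transcript length and library reads, per the file headers of the spleen tables. The deposited read counts are raw, judged from the values, and in the spleen tables the header words over the count and length columns are exchanged. Per the submitters' processing notes, CASAVA 2.18, Bowtie2, SICER 1.1, edgeR and the build mm9 were used, with no role given for each. For each of the 22878 symbols the row with the most reads over all libraries was kept, out of 29257 rows; Ahnak and Lgals3 have 2 rows and the other 8 genes 1. Whether counting used strand is not stated per the labels.

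Counts were tested with edgeR 4.0.16 (R 4.3.3) by the quasi-likelihood test, with TMM scaling, filterByExpr and Benjamini-Hochberg adjustment over all genes tested at 0.05. The 4 spleen libraries were fitted alone and the 8 lymph node libraries together, with 1 mean per group; standard errors are the log2 fold change divided by the square root of F. The scripts were tested on simulated counts. For the lymph node these had less spread than the data, whose biological coefficient of variation was 0.908. The simulation therefore does not show how many true differences the lymph node fit finds or how many false ones it calls. Alternatives were DESeq2 1.42.0, limma-trend 3.58.1 on log2(RPKM + 1) and log2(RPKM + 0.1), other scaling and filters, summed rows, a replicate block and libraries left out.

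The 10 genes, the related lists and the markers were chosen with earlier results of these data known. Named beside the 10 are related genes past the threshold (the 6 with the smallest adjusted p where more passed), the 8 most correlated genes among those of at least 5 RPKM in 4 or more libraries, and sort checks. With 7 related genes past the threshold between Tfh and non-Tfh cells, Flna is named in addition, after its value was seen, as are Anxa1 in the lymph node and Lmnb2. Of the listed genes, Ahnak2, Lgalsl, Ly6g and Mzb1 had no matching symbol. DNase data were not analysed here.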

Additional observations from a re-analysis of the deposited data

How the results depend on the processing

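The median log2 fold change of the 10 genes kept its sign under each alternative tried, from -0.90 to -0.61 for ZsGreen+ over ZsGreen-, 1.56 to 1.72 and 1.67 to 1.80 for Tomato+ over Tomato- in Tfh and in non-Tfh cells, -1.14 to -0.88 for Tfh over non-Tfh, -1.20 to -0.94 among Tomato+ and -1.15 to -0.72 among Tomato- cells. The number of the 10 called lower in Tfh cells, 7, became 3 with summed rows (Ahnak, Vim, Crip1), 2 without both Tomato- replicate 2 libraries (Ahnak, Vim) and 3 to 5 with 1 library left out; DESeq2 called 9 and limma 6. Among Tomato+ cells the count, 0, became 1 without a filter, 7 with DESeq2 and 1 with limma on log2(RPKM + 1). Among Tomato- cells the count, 2, became 4 without a filter, 6 with DESeq2, 1 with limma at either pseudocount, 1 with summed rows, 0 with only the libraries compared, 0 without both replicate 2 libraries and 0 to 1 with 1 library left out. The causes were not tested.

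Taken over all expressed genes, same-numbered libraries showed little shared deviation (correlations of -0.0104 to 0.0471), so libraries of the same number were not taken as pairs. Such a correlation cannot show a deviation shared by few genes. Neutrophil markers were raised in both Tomato- replicate 2 libraries, at 536 RPKM in Tfh and 455 RPKM in non-Tfh cells, against 38.0 and 58.7 RPKM in replicate 1. A replicate block gave 4 of the 10 called (S100a10, Ahnak, Vim, Crip1) for Tfh against non-Tfh cells, 1 among Tomato- cells, and over all genes 23 called for Tomato in non-Tfh cells, 75 for Tfh against non-Tfh and 1 among Tomato+ cells. Under the block S100a11 among Tomato- cells was -0.031.

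Over all genes, the number called for Tomato in Tfh cells was 13, and 25 without a filter, 20 at 5 RPKM, 258 with DESeq2, 29 and 21 with limma, 8 with summed rows, 0 with only the libraries compared, 0 without both replicate 2 libraries, and 2 to 8 with 1 library left out. In non-Tfh cells it was 39, and 65 without a filter, 554 with DESeq2, 71 and 59 with limma, 10 with summed rows, 3 with only the libraries compared, 6 without both replicate 2 libraries and 5 to 37. For Tfh against non-Tfh it was 126, and 725 with DESeq2, 27 without both replicate 2 libraries and 46 to 84. Among Tomato+ cells it was 9, and 49 without a filter, 18 at 5 RPKM, 414 with DESeq2, 29 and 23 with limma, 0 with summed rows, 0 with only the libraries compared, 0 without both and 0 to 1. Among Tomato- cells it was 21, and 52 without a filter, 524 with DESeq2, 43 with limma on log2(RPKM + 1), 9 with summed rows, 0 with only the libraries compared, 0 without both and 6 to 12. In the spleen it was 3074, from 2150 to 3681.

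Signs turned for Lgals3, S100a11, Lgals1 and Anxa2. Lgals3 in the spleen was 0.055 without ZsGreen- replicate 1 and 0.043 without ZsGreen+ replicate 2 (lowest with 1 library left out, -0.35). S100a11 was -0.065 for Tomato in Tfh cells without Tfh Tomato- replicate 1, and for Tfh over non-Tfh 0.067 without that library, 0.021 without non-Tfh Tomato- replicate 1 and 0.047 without non-Tfh Tomato+ replicate 2, which also gave 0.081 among Tomato+ cells. With 1 library left out, S100a11 reached 0.57 for Tomato in Tfh cells, -0.26 for Tfh over non-Tfh, -0.37 among Tomato+ and 0.30 among Tomato- cells. Among Tomato- cells S100a11 was -0.0061 with median-of-ratios scaling, -0.0062 with DESeq2, -0.52 without both replicate 2 libraries, -0.34 without the Tfh one and -0.18 without the non-Tfh one. There Lgals1 was 0.014 with limma at either pseudocount, 0.081 without non-Tfh Tomato- replicate 1 and 0.089 without Tfh Tomato- replicate 2 (lowest with 1 left out, -0.15), and Anxa2 was 0.096 without both. The biological coefficient of variation was 0.908 in the lymph node fit and 0.0867 in the spleen fit. The wider window around start sites for DNase islands was not run.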
